A study of Homo sapiens with 6 samples.

Results

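The genes described here encode the subunits of Mediator, the large protein complex that joins transcription factors bound at enhancers to RNA polymerase II at promoters. They were chosen by name, as every row called MED followed by a number (with or without a final L), together with CDK8, CDK19 and CCNC, and they numbered 33 of 41471 gene symbols in the CDK16 knockdown table and 33 of 34157 in the table of rebastinib (Reb) treatment. The set was chosen for the rise of its member MED19 with both CDK16 hairpins, so the change of MED19 in those libraries is given as a description. The RNA-seq libraries came from MDA-MB-231, a human cell line derived from a triple-negative breast cancer. In the knockdown experiment the cells stably carried a lentiviral scramble shRNA, CDK16-sh1 or CDK16-sh2, in a vector that also encodes GFP, and the stable lines were made by sorting infected cells. In the second experiment the cells received DMSO as vehicle, Reb at 1 μM or Reb at 5 μM for 48 h, where Reb is an inhibitor of CDK16 and of other kinases. Each of the 6 conditions had 1 library, so no difference below has a replicate check and none was tested.

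The total count was between 25838443 and 31955119 in the knockdown libraries and between 37655548 and 50303269 in the Reb libraries. CDK16, the gene that the hairpins target, had 3223 counts with the scramble shRNA, 1360 with CDK16-sh1 and 846 with CDK16-sh2, and its log2 fold change was -1.52 and -1.82. Of the genes that mark this mesenchymal cell line, VIM was at 177 RPKM or more in every library, CD44 at 31.8 or more, AXL at 45.4 or more and ZEB1 at 4.00 or more, whereas ESR1 and PGR had at most 16 counts and CDH1 at most 53. ERBB2, also listed as low in these cells, was at 2.56 to 6.54 RPKM. Mitochondrial transcripts took 10.4 to 16.2% of the counts in the knockdown libraries and 7.19 to 16.4% in the Reb libraries, highest in CDK16-sh2 and in Reb at 5 μM. The library of Reb at 5 μM stood apart from the others, since its median log2 fold change over all expressed genes was -0.07 after TMM scaling and -0.75 when counts were scaled by library totals. The members whose direction at 5 μM turns with the scaling are named below. With CDK16-sh2 the same medians were 0.02 and -0.18, and MED4, MED10, MED11, MED17, MED20 and MED31, which lay slightly above 0, turned negative under library totals.

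Mediator is built from a head and a middle module, which contact the polymerase, a tail, which many activators bind, and the long scaffold subunit MED14, which holds these together. A separable kinase module, made of CDK8 or CDK19 with cyclin C, MED12 or MED12L and MED13 or MED13L, binds the core reversibly. MED19 lies in the middle module, where it helps to tie the core to the polymerase, and was also described as a contact of the repressor REST. MED26 is a docking site for elongation factors, and MED1 carries the motifs through which nuclear receptors bind. Of the 33 genes, 11 were placed in the head, 9 in the middle, 6 in the tail and scaffold and 7 in the kinase module. The placing of MED26 to MED30 differs between schemes. All 33 had a mean of at least 1 CPM in both experiments, and 32 a mean of at least 5 CPM, the exception being MED12L.

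RefSeq promoters were found for 25 of the 33 members. The 250 bases before the start site, on GRCh38.p14, are shown for MED19, the gene for which the set was chosen (chr11:57712216-57712465, minus strand), for MED26 and MED1, the highest and the lowest member with Reb at 5 μM (chr19:16628205-16628454 and chr17:39451264-39451513, minus strand), and for MED12, the lowest of the kinase module there (chrX:71118346-71118595, plus strand). Capitals mark CCAAT or GGGCGG on either strand.
MED19: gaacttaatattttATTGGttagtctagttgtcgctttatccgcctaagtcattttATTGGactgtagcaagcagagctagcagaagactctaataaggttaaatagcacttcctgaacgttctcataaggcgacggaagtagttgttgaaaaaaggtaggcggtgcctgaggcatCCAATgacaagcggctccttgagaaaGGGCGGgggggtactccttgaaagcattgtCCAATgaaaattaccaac
MED26: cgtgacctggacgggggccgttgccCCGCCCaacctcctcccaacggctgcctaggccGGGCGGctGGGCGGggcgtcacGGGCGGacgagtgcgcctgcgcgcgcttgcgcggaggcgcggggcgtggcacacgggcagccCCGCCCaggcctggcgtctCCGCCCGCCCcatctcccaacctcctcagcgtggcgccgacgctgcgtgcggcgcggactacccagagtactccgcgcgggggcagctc
MED1: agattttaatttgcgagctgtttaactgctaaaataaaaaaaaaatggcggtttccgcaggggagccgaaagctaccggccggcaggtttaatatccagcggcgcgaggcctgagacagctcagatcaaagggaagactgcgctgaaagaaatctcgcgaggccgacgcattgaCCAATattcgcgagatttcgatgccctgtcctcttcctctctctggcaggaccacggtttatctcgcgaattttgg
MED12: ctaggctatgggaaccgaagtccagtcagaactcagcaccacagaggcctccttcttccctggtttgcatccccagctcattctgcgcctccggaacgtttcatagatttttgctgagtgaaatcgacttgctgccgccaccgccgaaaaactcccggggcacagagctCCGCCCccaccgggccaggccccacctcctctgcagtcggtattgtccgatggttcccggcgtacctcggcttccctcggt
The MED19 stretch held 4 copies of CCAAT and 1 GC box, and at least 4 copies of CCAAT were found in 0.930% of 27305 promoters of this length. That of MED26 held 7 GC boxes, some of them overlapping, and no CCAAT, and at least 7 GC boxes were found in 1.18% of promoters. MED1 held 1 CCAAT and no GC box, and MED12 held 1 GC box and no CCAAT. Over the 25 members CCAAT was present in 10 promoters, that is 40.0% against 33.0% of all promoters, and the GC box (GGGCGG) in 15, that is 60.0% against 42.3%. The ETS motif CCGGAA was present in 7 and TGACG, the core of a cyclic AMP response element, in 9 of the 25, against 14.8 and 21.7% of all promoters. The palindromic NRF1 motif was present in 4 of the 25, against 5.53% of all promoters. Both strands were searched, and a match describes letters only.

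MED19 had 311 counts with the scramble shRNA, 1421 with CDK16-sh1 and 910 with CDK16-sh2. Its level, per length, was 6.78, 25.1 and 18.6 RPKM in the same order, so both hairpin libraries lay above their control. In RNA from a whole culture, more MED19 transcript per cell and a larger share of cells with it cannot be told apart. The log2 fold change was 1.91 with CDK16-sh1 (95% counting interval 1.74 to 2.10) and 1.65 with CDK16-sh2 (1.47 to 1.85), where the interval is a Clopper-Pearson interval of the share of 2 libraries' counts and covers counting error only. Both libraries share 1 control, so these values are not independent of each other. Of all 15295 expressed genes 99.7% had a lower log2 fold change with CDK16-sh1 and 99.9% with CDK16-sh2, which describes the values that chose the set. CDK16-sh2 stood 0.26 below CDK16-sh1 on the log2 scale (interval of the difference -0.38 to -0.14). MED19 ranked 13 of 33 members by RPKM in the scramble library and first in both hairpin libraries.

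**Figure D1:**
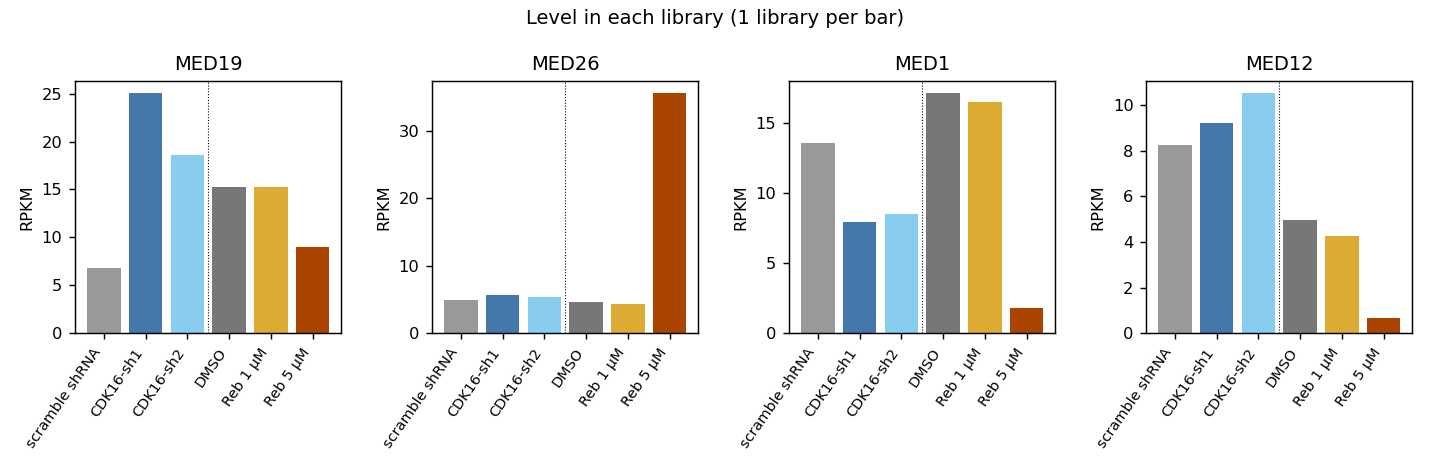
Level in RPKM of MED19, MED26, MED1 and MED12 (1 panel each) in the 6 libraries, 1 bar per library, with a dotted line between the 2 experiments. MED19 was 6.78 RPKM with the scramble shRNA and 15.2 RPKM with DMSO, MED26 reached 35.6 RPKM with Reb at 5 μM, and MED1 and MED12 were lowest there, at 1.80 and 0.672 RPKM.

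In the Reb experiment MED19 had 1358, 1333 and 599 counts with DMSO, 1 μM Reb and 5 μM Reb, or 15.2, 15.2 and 8.96 RPKM. The log2 fold change was -0.05 at 1 μM (interval -0.16 to 0.06) and -0.07 at 5 μM (-0.21 to 0.07) after TMM scaling. Scaled by library totals it was -0.76 at 5 μM, and the value at 1 μM turned to just above 0. The control levels of MED19 differed between the experiments. With the 6 libraries scaled together, a comparison added after the data were seen, MED19 was 1.27 lower on the log2 scale in the scramble library than in DMSO (interval -1.46 to -1.09), and the value was -1.28 with DESeq2 size factors and -1.16 with library totals. Against DMSO, MED19 was 0.63 higher with CDK16-sh1 and 0.37 higher with CDK16-sh2. In that comparison 1 of 33 members was at least 2-fold higher in the scramble library (MED27, 1.58), against 12.2% of 15735 genes, and 3 were at least 2-fold lower (MED19, MED12L at -1.27 and MED14 at -1.07), against 12.8%. The 2 controls differ in experiment, vector and library, and these cannot be told apart.

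MED19 lies on chromosome 11 from 57703714 to 57712221 (GRCh38, minus strand, 1775 exonic bases), and none of its exonic bases were shared with another listed gene. TMX2, an endoplasmic reticulum thioredoxin-related protein, starts in the opposite direction 378 bases away in the RefSeq annotation. TMX2 had 2010, 3284 and 1295 counts in the knockdown libraries, with log2 fold changes of 0.43 and -0.53. On the other side ZDHHC5, a palmitoyltransferase, had 2829, 3857 and 2491 counts, with log2 fold changes of 0.17 and -0.08. Neither neighbour moved past 2-fold with a hairpin. Of the other rows within 50 kb, CLP1, TMX2-CTNND1, C11orf31, RP11-691N7.6 and CTNND1 had log2 fold changes between -0.74 and 0.55 with the hairpins, and AP000662.9 and BTBD18 had at most 2 counts in each of those libraries. At 5 μM ZDHHC5 fell from 4014 to 315 counts (-2.56), next to the MED19 value of -0.07.

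The members past 2-fold were counted beside all expressed genes. With CDK16-sh1 1 member was at least 2-fold higher, where 4.33% of all expressed genes were, and 2 were at least 2-fold lower, where 6.86% were. With CDK16-sh2 1 member was higher, against 2.20% of genes, and 2 were lower, against 7.62%. MED19 was the higher member in both, by the choice of the set, and nothing is read from these counts. With Reb at 1 μM no member passed 2-fold in either direction, where 1.28% of all genes were higher and 1.92% lower. At 5 μM 7 members were higher, that is 21.2%, against 23.6% of all 15655 expressed genes, and 10 were lower, that is 30.3%, against 27.2%. Under library totals these were 4 and 14, that is 12.1 and 42.4%, against 11.7 and 43.4% of all genes. The members' standard deviation at 5 μM was 1.48 on the log2 scale and that of all genes 1.59. The median log2 fold change of the members was -0.16, 0.17, -0.07 and 0.09 with CDK16-sh1, CDK16-sh2, 1 μM and 5 μM, against 0.00, 0.02, 0.00 and -0.07 over all genes. Under library totals the members' median was -0.03 with CDK16-sh2 and -0.60 at 5 μM. The sum of the 33 RPKM values ranged from 200 with Reb at 5 μM to 241 with CDK16-sh1.

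**Figure D2:**
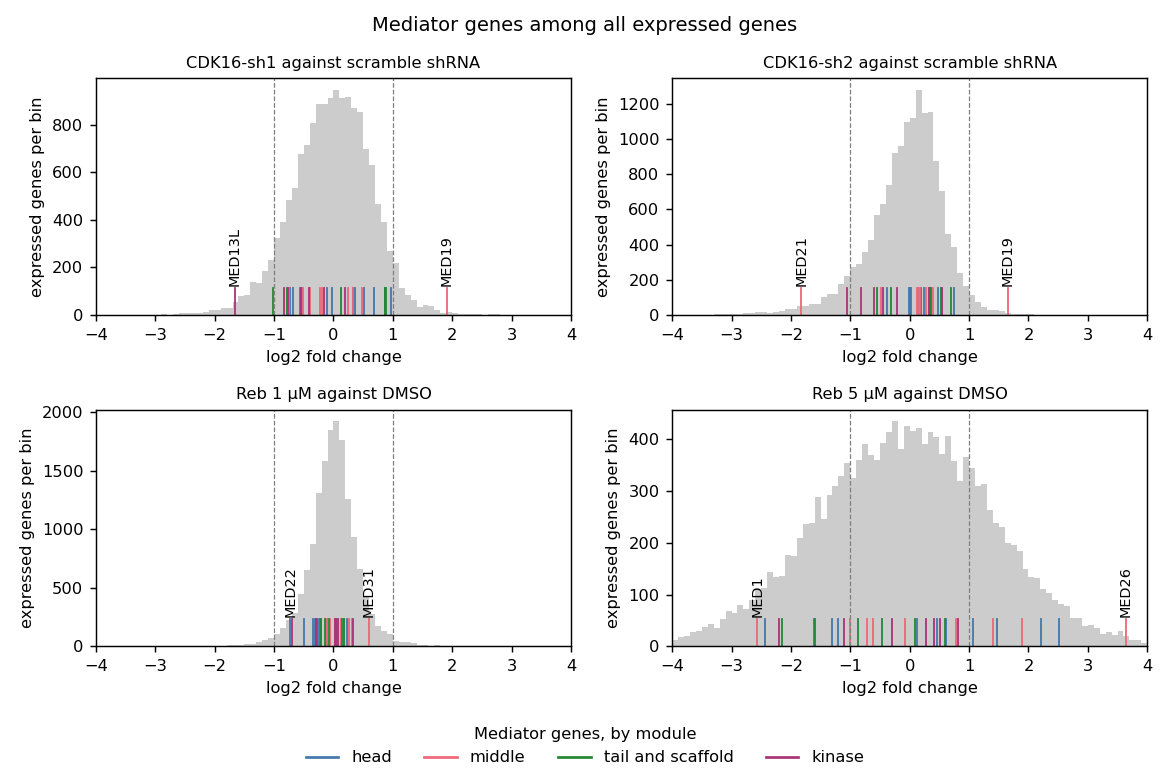
Number of expressed genes (grey) in bins of 0.1 of the log2 fold change, 1 panel per comparison, with the 33 members as coloured ticks by module and dashed lines at 2-fold. The axis ends at -4 and 4. The highest and the lowest member are named, and MED19 lies in the right tail with both hairpins.

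In the kinase module 6 of 7 genes lay below 0 with CDK16-sh1 and 5 of 7 with CDK16-sh2. Over all expressed genes 49.9 and 51.4% lay above 0. In each comparison 1 gene of the module was at least 2-fold lower, MED13L and MED12L in that order, where 6.86 and 7.62% of all genes were. Under library totals MED13L was also past 2-fold with CDK16-sh2, so that 2 genes were, against 11.1% of all genes. The module's median log2 fold change was -0.54 with CDK16-sh1 and -0.44 with CDK16-sh2, against 0.00 and 0.02 over all expressed genes. With CDK16-sh2 it was -0.64 under library totals, against -0.18. After the trends with GC content and length were removed, the module's median was -0.20 and -0.22. MED13L, a link between the kinase and the core, had 1521, 583 and 798 counts with the scramble shRNA, CDK16-sh1 and CDK16-sh2. It fell by 1.66 on the log2 scale with CDK16-sh1 (interval -1.80 to -1.52), and its value with CDK16-sh2 was -0.82 (-0.95 to -0.70). MED13, its paralogue, had 780, 648 and 623 counts and log2 fold changes of -0.54 and -0.22. MED13L was thus above MED13 in the control and below it with CDK16-sh1 per length, with a ratio of RPKM of 1.43, 0.66 and 0.94. With CDK16-sh2 the levels were close, at 1.68 RPKM for MED13L and 1.79 for MED13, and no interval was made for the ratio. CCNC, the cyclin of the module, had 645, 461 and 396 counts, with log2 fold changes of -0.76 and -0.59. CDK19 had 239, 161 and 163 counts (-0.84 and -0.44). CDK8, the more abundant of the kinases, had 457, 415 and 533 counts and differed in sign between the hairpins, at -0.41 and 0.33. MED12, which activates the kinase, had 1585, 2187 and 2150 counts (0.19 and 0.55). MED12L had 51, 55 and 22 counts, and its value of -1.05 with CDK16-sh2 had a wide interval, from -1.90 to -0.36. That value was -0.79 after the length trend was removed and -0.78 after the GC and length trends were removed. It was -0.65 with 0.1 added to each RPKM value. The levels before that addition were 0.156 RPKM with the scramble shRNA and 0.0634 with CDK16-sh2, which is past 2-fold.

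With Reb the paralogues of the kinase module differed from each other in their change. MED12 had 1861, 1563 and 188 counts with DMSO, 1 μM and 5 μM, and fell by 2.19 on the log2 scale at 5 μM (interval -2.42 to -1.98). MED12L had 227, 187 and 128 counts, with a log2 fold change of 0.28 at 5 μM that turns negative under library totals. The ratio of MED12 to MED12L in RPKM was 13.9, 14.2 and 2.50 in the same order, and this ratio within a library does not depend on the scaling. CDK19 had 763, 476 and 163 counts, with a log2 fold change of -0.70 at 1 μM (-0.87 to -0.54) and a fall of 1.11 at 5 μM, which was -0.96 after the length trend was removed. CDK8 had 1083, 1136 and 713 counts, with values of 0.05 and 0.50, the latter negative under library totals. The ratio of CDK8 to CDK19 was 3.01, 5.05 and 9.26, and in the knockdown libraries 4.05, 5.46 and 6.92. CCNC had 1303, 1658 and 490 counts (0.32 and -0.30). MED13L had 3485, 3591 and 2842 counts (0.02 and 0.81), and MED13 had 1555, 1657 and 961 counts (0.07 and 0.41, the latter negative under library totals), so that the ratio of MED13L to MED13 was 1.64, 1.59 and 2.17.

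**Figure D3:**
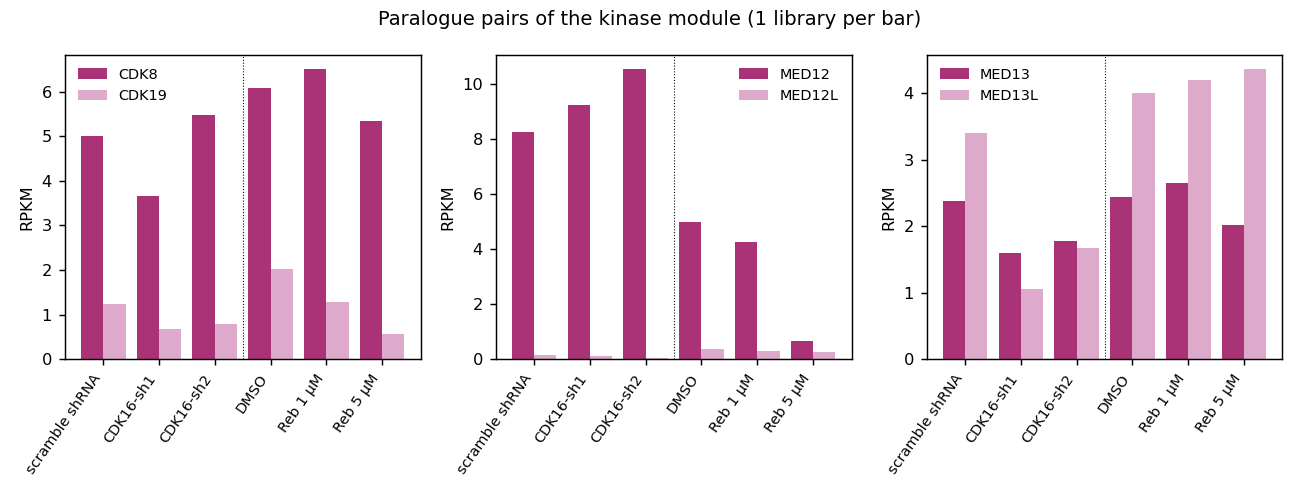
Level in RPKM of the paralogue pairs of the kinase module, CDK8 and CDK19, MED12 and MED12L, and MED13 and MED13L, in the 6 libraries, 1 bar per gene and library, with a dotted line between the experiments. MED13L was above MED13 in 4 libraries, below it with CDK16-sh1 and close to it with CDK16-sh2. The MED12 bar at 5 μM was 0.672 RPKM against 4.98 RPKM with DMSO.

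The middle module held MED19 and, at 5 μM Reb, the highest and the lowest member. With the hairpins its other genes apart from MED19 were within 2-fold of the control, save MED21. MED21, a small subunit that joins MED7 at the hinge of the middle module, had 310, 319 and 80 counts with the scramble shRNA, CDK16-sh1 and CDK16-sh2. Its fall was seen with CDK16-sh2, at -1.82 (interval -2.22 to -1.49), next to -0.23 with CDK16-sh1. The difference, CDK16-sh2 minus CDK16-sh1, was -1.59 on the log2 scale. MED1 had 2575, 1863 and 1719 counts and values of -0.74 and -0.48. The remaining middle genes, MED4, MED7, MED9, MED10, MED26 and MED31, lay between -0.52 and 0.48 with CDK16-sh1 and between 0.12 and 0.39 with CDK16-sh2.

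At 5 μM Reb the middle module spanned the range from the highest to the lowest member. MED26 had 1233, 1144 and 7144 counts with DMSO, 1 μM and 5 μM, a rise of 3.64 on the log2 scale (interval 3.56 to 3.73), and MED26 was the member with the highest RPKM there, from rank 19 with DMSO. Of its exonic bases 50.1% are shared with other listed genes. Of these CTD-3222D19.8, on the other strand, had 58, 54 and 936 counts (5.06 at 5 μM), and CTC-429P9.4 and CTD-3222D19.2, on the same strand, rose by 1.40 and 1.25 at 5 μM. How reads in shared bases were assigned was not stated, and the part of these genes in the MED26 value was not tested. MED1 had 6331, 5977 and 496 counts, a fall of 2.56 (-2.70 to -2.43), and went from rank 1 to rank 20 by RPKM. MED10 rose from 1127 to 1934 counts (1.89). MED31 had 328, 504 and 405 counts, with values of 0.59 at 1 μM (0.39 to 0.80) and 1.41 at 5 μM, the latter 0.72 under library totals and 0.67 after the trends with GC content and length were removed. It shares 58.3% of its exonic bases with TXNDC17 on the other strand, which had 862, 1046 and 906 counts (0.25 and 1.18). MED21 had 501, 559 and 115 counts and was just past the 2-fold line at -1.01, or within it at -0.94 with DESeq2 size factors. MED4 had 1457, 1831 and 1163 counts, with values of 0.31 and 0.78. MED7 and MED9 had values of -0.62 and -0.72 at 5 μM and were past 2-fold under library totals.

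**Figure D4:**
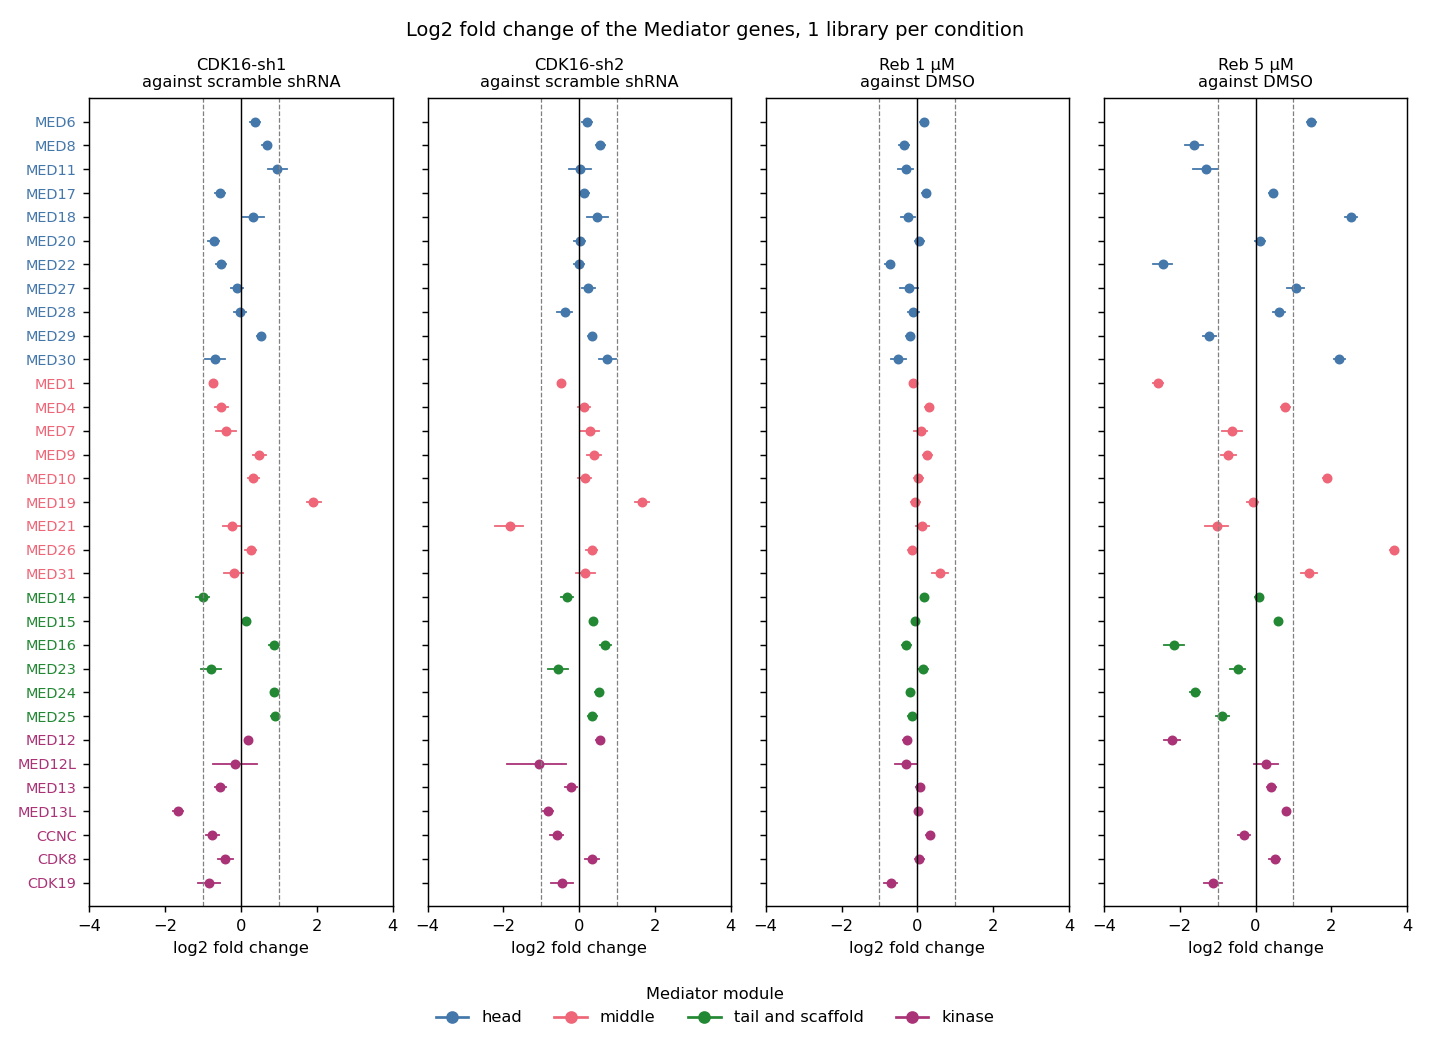
Log2 fold change of each of the 33 members against its own control, 1 panel per comparison, after TMM scaling. Points are single libraries, horizontal bars are 95% counting intervals, colours are modules and dashed lines mark 2-fold. MED19 stands out to the right with both hairpins, and at 5 μM the members spread from -2.56 for MED1 to 3.64 for MED26.

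In the head module no gene passed 2-fold with either hairpin. Its median was -0.03 with CDK16-sh1 and 0.20 with CDK16-sh2. MED17, the central head subunit, had 1064, 872 and 1083 counts, with values of -0.56 and 0.13. MED8 had 954, 1850 and 1300 counts, and was higher in both hairpin libraries at 0.68 and 0.55. MED30 was lower with CDK16-sh1 and higher with CDK16-sh2, at 291, 219 and 453 counts (-0.68 and 0.74), and the difference of 1.42 between the hairpins was past 2-fold. MED11 had 192, 455 and 181 counts, just inside the 2-fold line with CDK16-sh1 at 0.96 and at 0.02 with CDK16-sh2. It shares 36.9% of its exonic bases with CXCL16 and RP11-314A20.5 on the other strand, of which CXCL16 had 17, 71 and 38 counts.

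At 5 μM Reb 8 of the 11 head genes passed 2-fold, 4 in each direction, where 23.6% of all expressed genes were higher and 27.2% lower. MED18 had 484, 416 and 1281 counts with DMSO, 1 μM and 5 μM, and rose by 2.51. MED30 had 514, 368 and 1103 counts and rose by 2.20. MED6 (1197, 1370 and 1542 counts, 1.47) and MED27 (334, 291 and 324 counts, 1.06) were also past 2-fold, but within it under library totals, at 0.78 and 0.37. MED22 had 1552, 952 and 132 counts. It was the lowest member at 1 μM, at -0.73 (interval -0.85 to -0.61), and fell by 2.44 at 5 μM (-2.71 to -2.19). MED8 had 1060, 849 and 160 counts, at -0.34 and -1.61. MED11 (498, 409 and 93 counts) fell by 1.30, and MED29 (1845, 1625 and 368 counts) by 1.22, although MED29 was at -0.76 after the trends with GC content and length were removed. MED17 had 1783, 2113 and 1136 counts, with values of 0.22 and 0.46, and the latter was negative under library totals, as were those of MED20 and MED28.

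In the tail and scaffold MED14 was past 2-fold with CDK16-sh1. It had 733, 438 and 544 counts in the knockdown libraries. Its value with CDK16-sh1 was -1.02 (interval -1.19 to -0.85), and its value with CDK16-sh2 was -0.32. With 0.1 added to each RPKM value, MED14 was just within 2-fold with CDK16-sh1. Before that addition its level was 2.94 RPKM with the scramble shRNA and 1.42 with CDK16-sh1, which is past 2-fold. MED16 had 659, 1464 and 987 counts and lay at 0.87 and 0.69. MED24 and MED25 lay at 0.88 and 0.89 with CDK16-sh1 and at 0.52 and 0.35 with CDK16-sh2. MED23, which links the complex to signal-activated factors, had 288, 202 and 182 counts (-0.78 and -0.55). With Reb at 5 μM MED16 went from 1248 to 130 counts and MED24 from 3713 to 572, falls of 2.15 and 1.59, and the value of MED24 was -0.95 after the trends with GC content and length were removed. MED14 had 2792, 3207 and 1374 counts, at 0.18 and 0.09, the latter negative under library totals. MED15, the tail subunit that many activators bind, was at 0.60 at 5 μM, also negative under library totals. At that dose MED25 was at -0.88 and MED23 at -0.47, and both were at least 2-fold lower under library totals.

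The hairpins and the doses were also set side by side. The interval of the difference between the hairpins excluded 0 for 28 members, and the difference was past 2-fold for MED30 and MED21. Between 1 μM and 5 μM the difference was past 2-fold for 14 members, from -2.46 for MED1 to 3.77 for MED26. The same shares over all expressed genes were not computed, so nothing is read from these counts of members. At 1 μM the members lay between -0.73 and 0.59, with MED22 and CDK19 lowest and MED31 highest. These comparisons share a control within each experiment.

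The values of the members moved with base composition. Over the 33 members the log2 fold change and the GC content of the transcripts had a Pearson's r of 0.61 with CDK16-sh1 and 0.51 with CDK16-sh2, and of -0.48 and -0.25 with Reb at 1 μM and 5 μM. Over all expressed genes with a known GC content these were 0.49, 0.13, -0.31 and -0.22. For exon length on the log2 scale the members' r was -0.41, -0.44, 0.00 and -0.21 in the same order. Over all expressed genes it was -0.24, -0.11, 0.07 and -0.12. The points of a comparison come from the same 2 libraries, and genes are not independent replicates. With CDK16-sh1 13 of 17 members at or above the median GC content of 45.7% lay above 0, whereas 1 of the 16 members with a lower GC content did. These counts were 15 and 7 with CDK16-sh2, 3 and 12 with Reb at 1 μM, and 6 and 11 at 5 μM. All expressed genes were not split in this way, so nothing is read from these counts. MED19, at 52.8% GC, was at 1.60 with CDK16-sh1 and 1.57 with CDK16-sh2 after the trends with GC content and length were removed. Under that setting MED14 was within 2-fold with CDK16-sh1, as was MED12L with CDK16-sh2. The part of base composition in the other values was not tested.

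**Figure D5:**
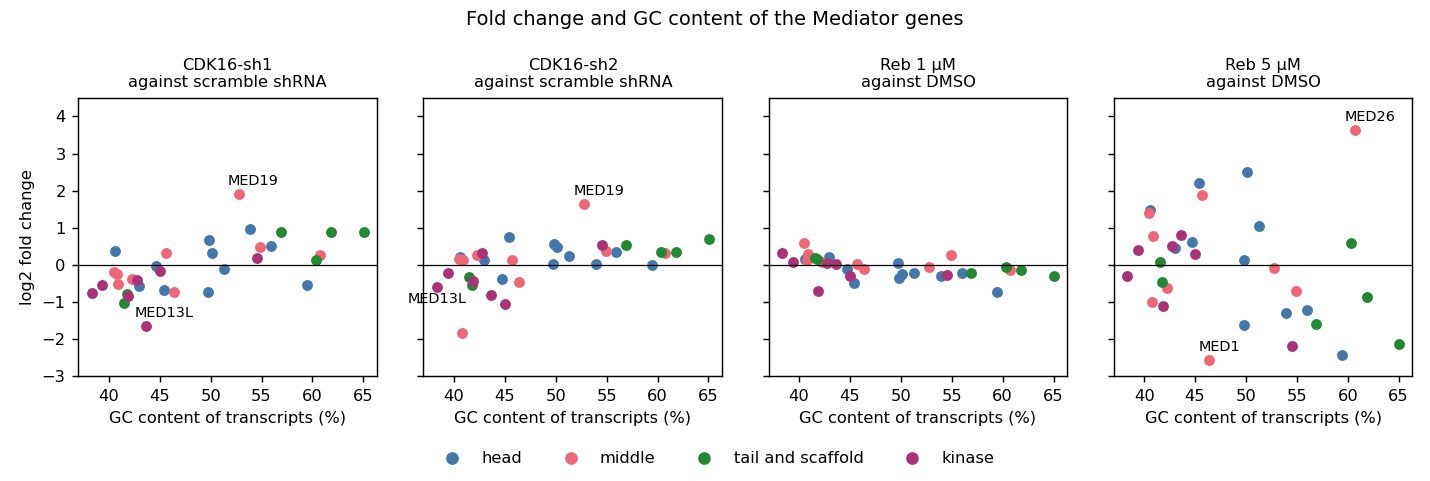
Log2 fold change of the 33 members against the GC content of their transcripts in percent, 1 panel per comparison, 1 point per gene coloured by module. Points rise to the right with the hairpins, where MED19 lies above the other members of like GC content, and MED26 and MED1 mark the ends at 5 μM.

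The machinery that works with Mediator was described from lists written by hand. Of all expressed genes 4.33% were at least 2-fold higher with CDK16-sh1 and 2.20% with CDK16-sh2, and 6.86 and 7.62% were lower. At 5 μM 23.6% were higher and 27.2% lower, or 11.7 and 43.4% under library totals. The lists are short, and nothing is read from their counts. None of the 12 RNA polymerase II genes passed 2-fold with a hairpin, and their median was 0.40 and 0.22, with POLR2H at 711, 1256 and 885 counts (0.54 and 0.42). At 5 μM 2 of them were higher, with POLR2K at 1.98, and 1 lower, POLR2H at -1.22, and their median of 0.48 was -0.21 under library totals. Of 33 genes of the general transcription factors none passed 2-fold with CDK16-sh1, 1 was higher and 1 lower with CDK16-sh2, and 8 were higher and 7 lower at 5 μM, among them GTF2H5 (2.38) and TAF2 (-2.59), against 23.6 and 27.2% of all genes. Under library totals 6 were higher and 12 lower at 5 μM. Their median was -0.13, 0.22, 0.09 and 0.29 with CDK16-sh1, CDK16-sh2, 1 μM and 5 μM, and -0.40 at 5 μM under library totals. Of 32 expressed genes of pausing and elongation, which include the partners of MED26, 4 were lower with CDK16-sh1 and 2 with CDK16-sh2, where TCEA1 had 2142, 1558 and 421 counts (-0.74 and -2.24), and 11 were higher and 8 lower at 5 μM, which turned to 6 higher and 11 lower under library totals. Their median was -0.20, 0.01, -0.02 and 0.67 in the same order, and -0.02 at 5 μM under library totals. Among 22 expressed factors that contact Mediator 2 were higher with CDK16-sh1 and 1 with CDK16-sh2. MYC was higher in both, at 2853, 11280 and 6340 counts (1.71 and 1.26). REST, which was described to bind through MED19, had 829, 457 and 426 counts, with values of -1.13 and -0.85. At 5 μM 5 of the 22 (22.7%) were higher and 9 (40.9%) lower, with HIF1A at 1.92 and SREBF1 at -1.40. Under library totals 2 (9.09%) were higher and 12 (54.5%) lower. Their median was -0.10, 0.01, -0.17 and -0.35, and -1.04 at 5 μM under library totals. With Reb at 1 μM no gene of the 4 lists passed 2-fold.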

How the data were processed

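Stranded mRNA libraries were read on a HiSeq X 10. For each gene symbol the authors deposited whole-number counts without normalization, and RPKM values, which are those counts divided by gene length and by the library's total. The submitters' processing notes name Trimmomatic, featureCounts and Subread 1.5.1, and coordinates are on GRCh38. The aligner and whether strand was used in counting are not given in the sources used here. Total counts ranged from 25838443 to 50303269 in 6 libraries, 1 per condition.

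Treated libraries were set against their own control as log2 fold changes in edgeR 4.0.16 (R 4.3.3), from TMM-scaled CPM to which a prior count of 2 was added. Genes had to average 1 CPM or more in the experiment. A gene was counted as changed past 2-fold, which is the fold part of the threshold in the study's methods. The FDR part was not applied, since no test was run. Intervals are 95% Clopper-Pearson intervals of 2 libraries' counts. They cover counting error only, since 1 library per condition gives no spread between libraries. Reads that carry no molecular identifier can be copies of 1 molecule, which would make the intervals too narrow. GC content came from GENCODE 29 transcripts matched by symbol (33 of 33 members, 12940 of 15295 expressed genes of the knockdown table) and promoters from RefSeq, 1 per symbol. On simulated data with counting noise only and 200 genes changed 4-fold, 189 to 192 of them were past 2-fold in the 4 comparisons. The simulation held no spread between libraries and far fewer changed genes than the 5 μM library, where 50.8% of genes passed 2-fold. It checks the calculation and does not bear on whether a call would repeat.

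The alternatives were DESeq2 1.42.0 size factors, library totals, mitochondrial transcripts left out, the authors' RPKM with 0.1 added, a prior count of 0.5, no filter, a mean of 5 CPM, trends with length or with GC content and length removed (mgcv 1.9.3), and thresholds of 1.5-fold and 4-fold. The comparison between the controls was added after the data were seen. The members and lists were chosen with earlier results of these data known. Full counts are given for MED19, the kinase module, MED1, MED14, MED17 and, per experiment, the 3 members with the largest rise and the 3 with the largest fall in both treated libraries by the smaller change. In each related list up to 2 genes per direction qualified in the same way, and those printed are among them. Other members are named with values where they passed 2-fold, came near it, shared bases with other genes or lay at the end of a range.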

Additional observations from a re-analysis of the deposited data

How the results depend on the processing

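Each condition had 1 library, so no replicate could be left out. No paired analysis was possible because the labels give no replicate numbers and each group has 1 library. None of the 18 alternative values of MED19 with the hairpins turned the direction of its rise, which was 1.68 and 1.60 with CDK16-sh1 after the length trend and the GC and length trends were removed, and 1.45 with CDK16-sh2 under library totals and on the RPKM scale. MED19 was chosen for that rise and every setting uses the same libraries, so the kept direction adds no support to it. With Reb at 1 μM the sign of MED19 turned under library totals, on the RPKM scale and after either trend was removed, reaching 0.060 after the GC and length trends were removed. MED19 was -0.76 at 5 μM under library totals and on the RPKM scale, -0.28 with no filter and -0.32 after the length trend was removed. MED19 and MED13L with CDK16-sh1, MED19 and MED21 with CDK16-sh2, and 10 of 17 members at 5 μM (MED18, MED30, MED10 and MED26 higher, MED8, MED11, MED22, MED1, MED16 and MED12 lower) stayed past 2-fold under every scaling, filter, prior count and trend tried. None of the 188 alternative values of other members past 2-fold turned its direction, but 65 of them lay outside the counting interval of the main value. Those members were picked as past 2-fold in the same libraries, so a kept direction adds no support here either.

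The count of members higher with CDK16-sh1 was 3 after the length trend was removed (MED24 and MED25 were added), 6 at 1.5-fold and 0 at 4-fold. The count lower was 1 on the RPKM scale and after either trend was removed, 8 at 1.5-fold and 0 at 4-fold. With CDK16-sh2 3 were higher at 1.5-fold and 0 at 4-fold, and 1 was lower on the RPKM scale, with a mean of 5 CPM and after either trend was removed, 4 at 1.5-fold and 0 at 4-fold. At 1 μM 1 was higher and 2 were lower at 1.5-fold. At 5 μM 4 were higher under library totals and on the RPKM scale, 11 at 1.5-fold and 3 at 4-fold, and 4 were lower at 4-fold. The share of all expressed genes past 1.5-fold or 4-fold is not given here, so nothing is read from the counts at these thresholds. The number of counts limits MED12L most, with 22 to 227 counts per library.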
